A study of Rattus norvegicus with 65 samples.

Results

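The genes described are those of cholesterol and fatty acid synthesis in the hypothalamus of diet-induced obese rats. They are 41 named genes, 23 in a cholesterol arm and 18 in a fatty acid arm, taken as the rows of the count table that carry these symbols, out of 38513 rows in all. All 41 passed the filter on low counts and were tested among 21871 genes. The hypothalamus of 65 adult male Wistar rats was sequenced, with 1 library per animal, in tissue collected 4 weeks after the intervention from animals fasted for 10 h. The study ran in 2 periods, and the labels give them as batch A, with 37 animals, and batch B, with 28.

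All groups but the lean animals are described by the study as made obese by 6 weeks of high-fat diet. The 14 RYGB-treated animals, 11 of them in batch A and the other 3 in batch B, had Roux-en-Y gastric bypass, and the 11 sham-treated animals (5 and 6) had a sham operation. The 7 BWM animals (batch A) had a sham operation and were fed less, to match the weight of the bypass animals. The 8 saline-treated animals (3 and 5) received saline by both routes used for the drugs. The 5 liraglutide-treated animals (batch B) received 0.4 mg/kg/day of this GLP-1 receptor agonist under the skin and saline from an osmotic minipump. The 4 PYY3-36-treated animals (batch B) received 0.1 mg/kg/day of this gut peptide from an osmotic minipump and saline under the skin. The 10 PYY3-36 + liraglutide-treated animals (5 and 5) received both. The remaining 6 animals (batch A) are labelled lean, and what they were fed is not given by that label. The study describes a free choice between a high-fat and a low-fat diet after the intervention for every group but BWM. It also names a low-fat-diet-only group when it gives body weights, and whether these are the lean animals is not stated.

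Cells make cholesterol from acetyl-CoA through mevalonate, squalene and lanosterol, and they make fatty acids by carboxylating acetyl-CoA to malonyl-CoA, joining these units, and then elongating and desaturating the chains. SREBP transcription factors, encoded by Srebf2 and Srebf1, are held in the endoplasmic reticulum by Scap and the Insig proteins when sterol is plentiful and released to switch on the genes of both pathways when it is not. The adult brain makes its own cholesterol because the blood-brain barrier keeps lipoproteins out, and myelin-forming oligodendrocytes use large amounts of both lipids.

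The promoter sequences below are those of 6 of the 8 members that differed between RYGB- and sham-treated animals. They are shown so that the letters searched for can be seen in place. They are the 250 bases before the RefSeq start on build GRCr8, read 5' to 3' on the strand of the gene. A promoter was matched by symbol for 34 of the 41 members. The other 7, Sqle, Fdft1, Pmvk, Stard4, Fasn, Acaca and Elovl6, were not searched, and Acaca and Elovl6 are the members that differed but are not shown. Capitals mark the CCAAT box (CCAAT), the E-box (CACGTG) and the GC box (GGGCGG), searched on both strands together with a sterol regulatory element (TCACNCCAC).
Srebf2, chr7:115543057-115543306, + strand: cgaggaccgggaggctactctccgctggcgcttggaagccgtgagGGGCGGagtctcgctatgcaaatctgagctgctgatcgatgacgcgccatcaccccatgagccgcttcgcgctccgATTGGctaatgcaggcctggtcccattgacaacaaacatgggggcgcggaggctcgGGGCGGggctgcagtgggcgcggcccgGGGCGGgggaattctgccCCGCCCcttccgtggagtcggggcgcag
Sc5d, chr8:51538278-51538527, - strand: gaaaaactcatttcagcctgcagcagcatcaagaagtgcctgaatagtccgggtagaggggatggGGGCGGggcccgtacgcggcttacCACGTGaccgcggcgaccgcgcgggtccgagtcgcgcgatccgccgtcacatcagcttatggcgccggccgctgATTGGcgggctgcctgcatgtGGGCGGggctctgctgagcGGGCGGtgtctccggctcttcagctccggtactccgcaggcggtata
Mvd, chr19:67414975-67415224, - strand: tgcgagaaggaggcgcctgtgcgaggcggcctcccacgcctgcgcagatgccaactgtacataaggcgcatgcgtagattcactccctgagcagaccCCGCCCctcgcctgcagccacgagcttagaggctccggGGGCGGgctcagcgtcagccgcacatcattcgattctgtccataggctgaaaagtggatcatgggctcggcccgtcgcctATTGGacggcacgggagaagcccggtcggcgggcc
Scd4, chr1:253152269-253152518, + strand: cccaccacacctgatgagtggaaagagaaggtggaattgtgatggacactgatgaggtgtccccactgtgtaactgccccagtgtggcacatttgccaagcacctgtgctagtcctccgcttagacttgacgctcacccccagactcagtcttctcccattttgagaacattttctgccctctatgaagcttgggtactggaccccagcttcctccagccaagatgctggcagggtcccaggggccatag
Scd, chr1:253231732-253231981, - strand: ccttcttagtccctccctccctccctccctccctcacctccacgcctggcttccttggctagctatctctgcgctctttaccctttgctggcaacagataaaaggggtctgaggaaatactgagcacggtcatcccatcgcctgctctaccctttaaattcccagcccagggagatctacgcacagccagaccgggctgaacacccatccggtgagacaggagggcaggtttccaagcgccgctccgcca
Fads2, chr1:216172034-216172283, - strand: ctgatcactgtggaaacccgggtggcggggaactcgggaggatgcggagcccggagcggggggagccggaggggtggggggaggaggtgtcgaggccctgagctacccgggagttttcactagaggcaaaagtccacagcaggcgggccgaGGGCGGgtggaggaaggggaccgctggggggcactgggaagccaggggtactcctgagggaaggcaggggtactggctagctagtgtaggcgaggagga
The Srebf2, Sc5d and Mvd windows each held a CCAAT box on the reverse strand, at 129, 87 and 35 bases before the start, and several GC boxes. The Sc5d window also held an E-box 161 bases before the start. The Fads2 window held a single GC box. The Scd4 and Scd windows held none of the 4 motifs. Over the 34 member promoters, a CCAAT box was found in 64.7% (15 of 19 in the cholesterol arm, 7 of 15 in the fatty acid arm) and in 34.0% of all 33469 promoters of this length. A GC box was found in 67.6% of members and 30.5% of all promoters, and an E-box in 11.8% and 5.59%. The exact letters of the sterol regulatory element were in 0 of the 34 windows and in 0.974% of all promoters. These are descriptions of letters in a window and not of sites in use. The motifs differ in length and the windows in base composition.

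Levels were compared between genes as CPM, counts scaled to library size, per kb of exon, in the 11 sham-treated animals. In the cholesterol arm, Fdps (farnesyl diphosphate synthase) had the highest median level, 111 CPM per kb. It was followed by Hmgcs1, which makes HMG-CoA for the mevalonate pathway, with 84.4 CPM per kb, and by the sterol demethylation enzyme Msmo1 with 80.8 CPM per kb. The lowest were Stard4, a sterol carrier, with 3.17 CPM per kb, and Hsd17b7 with 1.51 CPM per kb. None of the 22 neighbouring pairs in this order was separated without overlap between the animals. In the fatty acid arm, Scd2, a stearoyl-CoA desaturase that puts the first double bond into saturated chains, had a median of 641 CPM per kb. The next gene, Acly, which supplies acetyl-CoA from citrate, had 64.5 CPM per kb. This was the only step of the 17 in this arm at which the animals of neighbouring genes did not overlap. Acaca, the acetyl-CoA carboxylase that makes malonyl-CoA, had 3.86 CPM per kb, Scd4, a further stearoyl-CoA desaturase gene, 3.01 CPM per kb, Elovl6, which elongates saturated and monounsaturated chains, 2.20 CPM per kb and Acacb, the other carboxylase, 1.75 CPM per kb. Scd, Acaca, Scd4 and Elovl6 were among the 5 lowest of the 18 genes in this arm.

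**Figure D1:**
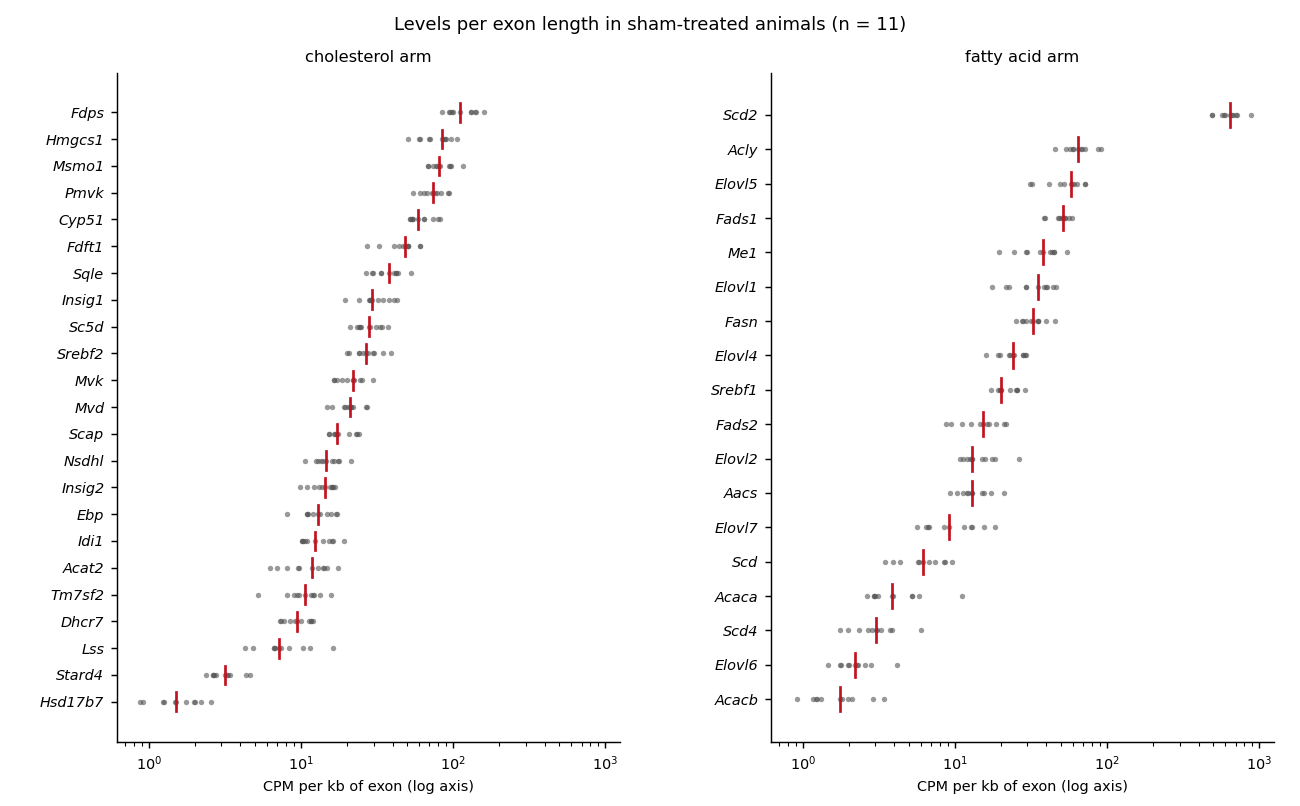
Levels of the 41 members in the 11 sham-treated animals, as CPM per kb of exon on a log axis. Each point is an animal and the red bar is the median. Scd2, with a median of 641, stands above the other members of the fatty acid arm, whereas the cholesterol arm runs without a gap from 111 for Fdps to 1.51 for Hsd17b7.

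The genes Scd2, Scd4 and Scd lie side by side on chromosome 1 of build Rnor_6.0, at chr1:264059374-264072433 on the forward strand, chr1:264094007-264105473 on the forward strand and chr1:264159966-264173061 on the reverse strand. Reads that fit several places were counted as fractions. Scd4 had values that were not whole numbers in 95.4% of the 65 libraries, and Scd2 and Scd had them in 90.8%. Reads of these closely related genes could therefore be split between them, which makes their single values uncertain. A value is not whole as soon as any read is split, so these shares do not measure how many reads were split. The share of libraries with fractional values was 80.0% for Mvd, which decarboxylates mevalonate diphosphate, and 78.5% for Elovl6. The Srebf2 gene overlaps the microRNA gene Mir33 and the annotated Fads2 gene overlaps Best1 and Incenp on the same strand. Fractional values were found in 36.9% of libraries for Srebf2 and in 1.54% for Fads2.

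RYGB- and sham-treated animals were compared to see which steps of lipid synthesis differed after the bypass. In the fatty acid arm, 5 of 18 genes were higher after RYGB and 0 were lower: Scd4, Acaca, Scd, Fads2 (the delta-6 desaturase of polyunsaturated fatty acids) and Elovl6. In the cholesterol arm, 2 of 23 were higher, Sc5d (sterol C5-desaturase, a late step from lathosterol) and Srebf2, and 1 was lower, Mvd. Together 8 of 41 members (19.5%) passed an adjusted p under 0.05 in edgeR's quasi-likelihood test, beside 13% of all 21871 genes. Higher calls were made for 6.52% and lower calls for 6.53% of all genes. The share was 27.8% in the fatty acid arm and 13% in the cholesterol arm, so the share of the cholesterol arm was that of the background. The median log2 fold change was 0.13 in the fatty acid arm (range -0.27 to 1.22) and 0.04 in the cholesterol arm (range -0.32 to 0.35), beside -0.02 over all genes. Scd4 was the only member that also exceeded a log2 fold change of 1, which 2.37% of all genes did. In bulk tissue, fewer cells of a type cannot be told apart from less RNA per cell.

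Scd4 was measured at 2.22 CPM in the lowest, 3.80 CPM in the median and 7.52 CPM in the highest sham-treated animal. In RYGB-treated animals it was 6.13, 9.73 and 14.1 CPM. All 14 RYGB-treated animals were above the sham median and 11 were above every sham-treated animal, but the groups overlapped. The log2 fold change was 1.22 (SE 0.20, edgeR adjusted p = 0.000582), which is 2.33-fold. Acaca rose from a median of 26.5 CPM (18.1 to 75.8) to 57.4 CPM (19.2 to 80.9), with 13 of 14 RYGB-treated animals above the sham median. Its log2 fold change was 0.79 (SE 0.17, edgeR adjusted p = 0.00316), which is 1.72-fold with the batch term. The ratio of the Acaca medians, which pool the batches, was 2.17. The same animals were at the extremes for both genes. Sham-treated animal 1 was the highest of its group for Scd4, Acaca and Elovl6, and RYGB-treated animal 11 was the lowest of its group. Whether the overlap came from these animals alone was not tested.

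Scd was 29.3 CPM in the median sham-treated animal (16.4 to 45.8) and 43.1 CPM after RYGB (31.7 to 73.5). All 14 RYGB-treated animals were above the sham median and 5 were above the highest sham-treated animal, with a log2 fold change of 0.60 (SE 0.16, edgeR adjusted p = 0.00923). Fads2 was 56.9 CPM in the median sham-treated animal (32.5 to 80.5) and 80.6 CPM after RYGB (37.5 to 115). Of the RYGB-treated animals, 7 were above the highest sham-treated animal, and the log2 fold change was 0.51 (SE 0.15, edgeR adjusted p = 0.0181). It was 0.44 (adjusted p = 0.0533) without RYGB-treated animal 13, which ended the call. Elovl6 was 5.48 CPM (3.68 to 10.3) in sham-treated and 8.12 CPM (3.89 to 12) in RYGB-treated animals, with a log2 fold change of 0.52 (SE 0.18, edgeR adjusted p = 0.0411). This call was lost when any of 13 of the 25 animals was left out in turn.

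Other enzymes of the fatty acid arm did not pass the test. Fasn, the synthase that builds palmitate, was 299 CPM in the median sham-treated (231 to 414) and 318 CPM in the median RYGB-treated animal (255 to 435). Its log2 fold change of 0.08 had a 95% interval from -0.08 to 0.24. Scd2, the abundant desaturase, was 3240 CPM (2480 to 4470) and 3150 CPM (2730 to 4510), with a log2 fold change of 0.15 and an interval from -0.03 to 0.32. The interval of Scd4, its neighbour on the chromosome, ran from 0.82 to 1.62. Srebf1, the regulator of fatty acid synthesis genes, was 90.0 CPM (77.2 to 128) and 112 CPM (83.2 to 137), and 13 of 14 RYGB-treated animals were above the sham median. The log2 fold change of Srebf1 was 0.17 (edgeR adjusted p = 0.288). Acly was 279 CPM in the median sham-treated and 276 CPM in the median RYGB-treated animal, and Fads1, the delta-5 desaturase, was 179 and 172 CPM. In both the groups overlapped, and the log2 fold changes with the batch term were 0.12 for Acly and 0.09 for Fads1.

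In the cholesterol arm, Sc5d was 139 CPM in the median sham-treated animal (104 to 185) and 162 CPM after RYGB (124 to 223). Of 14 RYGB-treated animals, 12 were above the sham median, with a log2 fold change of 0.33 (SE 0.08, edgeR adjusted p = 0.00761). Srebf2, the regulator of cholesterol synthesis genes, was 150 CPM (112 to 220) in sham-treated and 187 CPM (155 to 213) in RYGB-treated animals. All 14 RYGB-treated animals were above the sham median but none above the highest sham-treated animal, and the log2 fold change was 0.23 (SE 0.07, edgeR adjusted p = 0.0335). Mvd was 35.2 CPM (24.7 to 45.7) in sham-treated and 26.5 CPM (20.6 to 37.9) in RYGB-treated animals. It fell by 0.32 on the log2 scale (SE 0.10, edgeR adjusted p = 0.0309), with 12 of 14 RYGB-treated animals below the sham median and 4 below the lowest sham-treated animal. The Srebf2 call was lost in 8 and the Mvd call in 6 of the 25 fits that left out an animal.

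The other named genes of the cholesterol arm did not pass the test. Hmgcs1 was 295 CPM in the median sham-treated animal (178 to 371) and 254 CPM after RYGB (185 to 402), with a log2 fold change of 0.05 and a 95% interval from -0.20 to 0.29. Sqle, squalene epoxidase, was 77.7 CPM (55.2 to 108) and 72.9 CPM (58.3 to 98.7), with a log2 fold change of 0.06 and an interval from -0.13 to 0.24. The sign of both estimates turned under 5 of 13 alternative settings. Lss, lanosterol synthase, just missed the threshold, with 20.6 CPM (12.2 to 46.3) in sham-treated and 34.5 CPM (20.0 to 41.1) in RYGB-treated animals and a log2 fold change of 0.35 (SE 0.13, edgeR adjusted p = 0.0522). It passed with DESeq2 (adjusted p = 0.0381) and without sham-treated animal 1 (0.47, adjusted p = 0.00719). The ratio of the Lss medians, which pool the batches, was 1.68, beside 1.28-fold with the batch term. Of the sterol sensors, Scap was 102 CPM and 106 CPM in the median sham- and RYGB-treated animal and Insig2 was 46.6 and 43.7 CPM. With the batch term their log2 fold changes were -0.03 and 0.08. Insig1, which retains SREBP in the endoplasmic reticulum and is itself an SREBP target, was 70.9 CPM (46.9 to 103) and 84.6 CPM (58.2 to 146), with a log2 fold change of 0.24 (edgeR adjusted p = 0.172). The medians of the further enzymes Idi1 (35.0 and 30.2 CPM), Fdft1 (152 and 141 CPM), Cyp51 (177 and 171 CPM) and Dhcr7 (31.2 and 28.3 CPM) were slightly lower after RYGB, with ranges that overlapped and no call. These medians pool the batches. With the batch term the log2 fold changes were -0.16 for Idi1, 0.04 for Fdft1, -0.03 for Cyp51 and -0.08 for Dhcr7. For Stard4 the medians were 16.9 and 17.1 CPM.

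**Figure D2:**
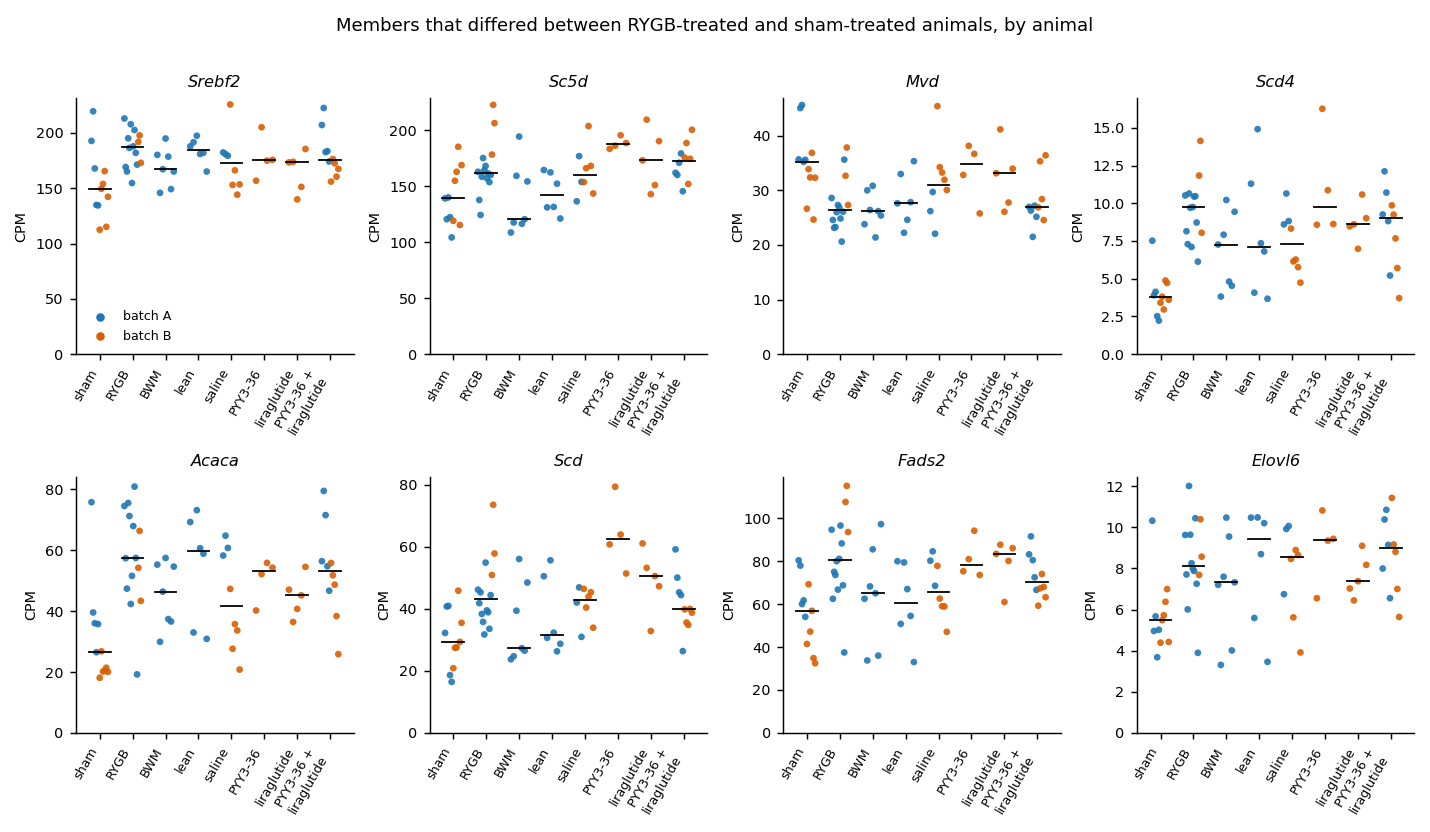
Levels in CPM of the 8 members that differed between RYGB- and sham-treated animals, in all 65 animals. Each point is an animal, blue for batch A and orange for batch B, and the bar is the group median. For Scd4 the sham-treated group, with a median of 3.80, is the lowest of all groups.

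**Figure D3:**
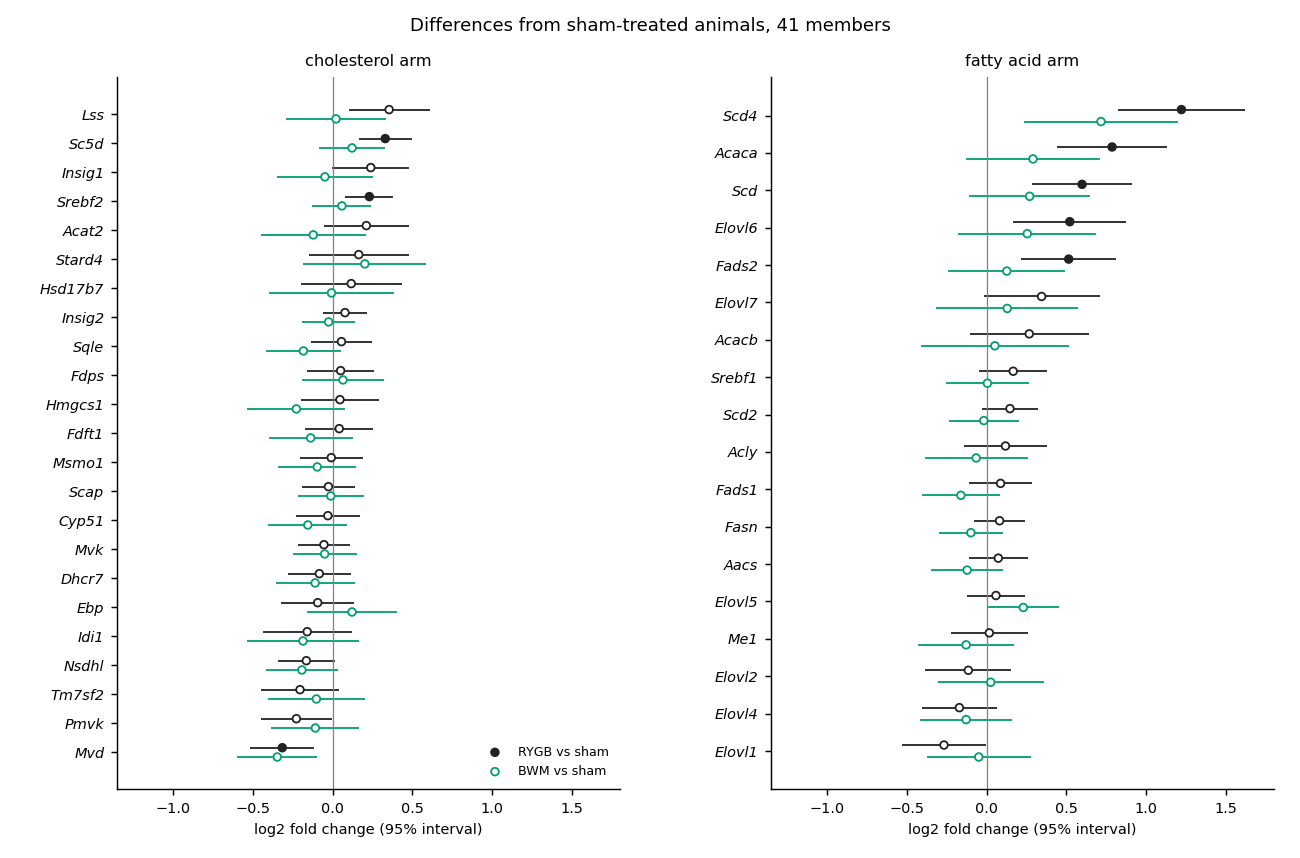
Log2 fold changes with 95% intervals of all 41 members in RYGB-treated (black) and BWM animals (green) vs. sham-treated animals, in order of the RYGB estimate. Filled points passed an adjusted p under 0.05. In the fatty acid arm 15 of 18 RYGB estimates lie above 0, in the cholesterol arm 12 of 23, and the 2 series share their sham-treated animals.

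The batches differed in how many members passed. In batch A (11 RYGB- and 5 sham-treated animals), 3 members passed beside 2.43% of all genes: Scd4, with a log2 fold change of 1.16 (edgeR adjusted p = 0.034), was higher, and Mvd and Nsdhl, a sterol dehydrogenase, were lower. Mvd ran from 35.2 to 45.7 CPM in these sham-treated animals and from 20.6 to 35.7 CPM in the RYGB-treated ones. In batch B (3 and 6 animals), 10 members passed beside 11.8% of all genes, all of them higher: Lss, Sc5d, Srebf2, Fasn, Acaca, Scd, Scd4, Elovl6, Fads1 and Fads2. Over all members, the groups did not overlap within the batch in 9 of 41, beside 15.8% of all genes. These 9 were the called members except Sc5d. Scd4 was 8.04 to 14.1 CPM in these RYGB-treated and 2.96 to 4.88 CPM in the sham-treated animals, and Acaca was 43.4 to 66.4 CPM and 18.1 to 26.8 CPM.

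The log2 fold changes in batch A and batch B were 1.16 and 1.56 for Scd4, 0.47 and 1.39 for Acaca, 0.48 and 0.98 for Scd, 0.18 and 1.18 for Fads2, and 0.48 and 0.69 for Elovl6. Those of Sc5d were 0.34 and 0.44, those of Srebf2 0.14 and 0.44, and those of Mvd -0.58 and 0.08. The difference between the batches was tested by an interaction term over 19374 genes. It passed for 0 members and 0 genes in edgeR, with 15 members (36.6%) at an unadjusted p under 0.05, beside 8.66% of all genes. The smallest adjusted p of a member was 0.251, for Fads1, whose log2 fold change was 0.79 larger in batch B.

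Library properties moved with the comparison. Cytosolic ribosomal protein genes took a median of 2.30% of counts in sham-treated (1.45 to 2.91%) and 1.65% in RYGB-treated animals (1.41 to 3.18%). The 1.45% was that of sham-treated animal 1 and the 3.18% that of RYGB-treated animal 11, the animals named above as extremes for Scd4 and Acaca. In batch B the ribosomal protein genes took 2.12 to 2.91% in the 6 sham-treated and 1.70 to 1.96% in the 3 RYGB-treated animals, without overlap. With the mean log2 level of these 87 genes as a covariate, only Scd4 was called among the members (log2 fold change 0.88, edgeR adjusted p = 0.00826), beside 0.512% of all genes. The estimates were then 0.49 for Scd, 0.30 for Acaca, 0.27 for Sc5d, 0.16 for Fads2, 0.14 for Srebf2, 0.13 for Elovl6 and -0.27 for Mvd. RNA of the mitochondrial chromosome took a median of 1.82% of counts (0.765 to 3.19%) in sham-treated and 0.861% (0.551 to 1.91%) in RYGB-treated animals. The part of the mitochondrial share in the result was not tested.

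Oligodendrocyte markers, all 14 of them detected, summed to a median of 24000 CPM (10400 to 43900) in sham-treated and 16600 CPM (8810 to 44900) in RYGB-treated animals. With their score as a covariate, 7 members were called beside 9.17% of all genes, and Scd4 had a log2 fold change of 1.26. Markers of the meninges summed to 172 CPM in the median sham-treated animal (92.3 to 1320), 464 CPM after RYGB (139 to 4810) and 1440 CPM in BWM animals (115 to 4660), and in batch A to 92.3 to 172 CPM in sham-treated and 139 to 4810 CPM in RYGB-treated animals. Pituitary markers summed to 11.6 CPM in the median sham-treated animal (3.49 to 475) and 40.7 CPM after RYGB (2.82 to 541). With the scores of pituitary, choroid plexus and meninges as covariates, 6 members were called beside 12.1% of all genes. Scd4, Acaca, Elovl6, Fads2, Sc5d and Srebf2 remained, whereas Scd had 0.45 (adjusted p = 0.0543) and Mvd -0.29 (adjusted p = 0.073). The 18 hypothalamic marker genes were all detected, but their sum varied from 126 to 7980 CPM over the 65 libraries. It was under 600 CPM in 13 libraries, none of them from an RYGB-treated animal. Sham-treated animals 1 (593 CPM), 2 (241 CPM), 6 (518 CPM) and 10 (355 CPM) were among the 13. Without these 13 libraries, 9 members were called beside 11.8% of all genes. Total counts per library ran from 20041010 to 36539941.

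The covariation of the members was examined on deviations from the mean of each group and batch, over 65 animals and 13 relations. The ribosomal protein score correlated with Acaca with Pearson's r = -0.876 and Spearman's rho = -0.837 (permutation p = 1e-05 each, the smallest that 100000 permutations can give, adjusted p = 2.17e-05 and 2.6e-05). Without the 2 animals farthest from the median score r was -0.823, and within the batches it was -0.914 (A) and -0.736 (B). For Scd4, r was -0.636 and rho -0.609 (same p-values), with r = -0.625 without these 2 animals and, by batch, -0.727 (A) and -0.334 (B). For Mvd, r was 0.308 (permutation p = 0.0216, adjusted p = 0.0281) and rho 0.150 (p = 0.258, adjusted p = 0.258). It was 0.0972 without 2 animals, so this relation rests on them. Over the 13 relations, those of the score with Fads2, Elovl6 and Srebf2 also passed. That with Sc5d passed by rho (-0.304, adjusted p = 0.0383) but not by r (-0.267, adjusted p = 0.0575), and that with Scd passed by neither (adjusted p = 0.0952 for r and 0.102 for rho).

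**Figure D4:**
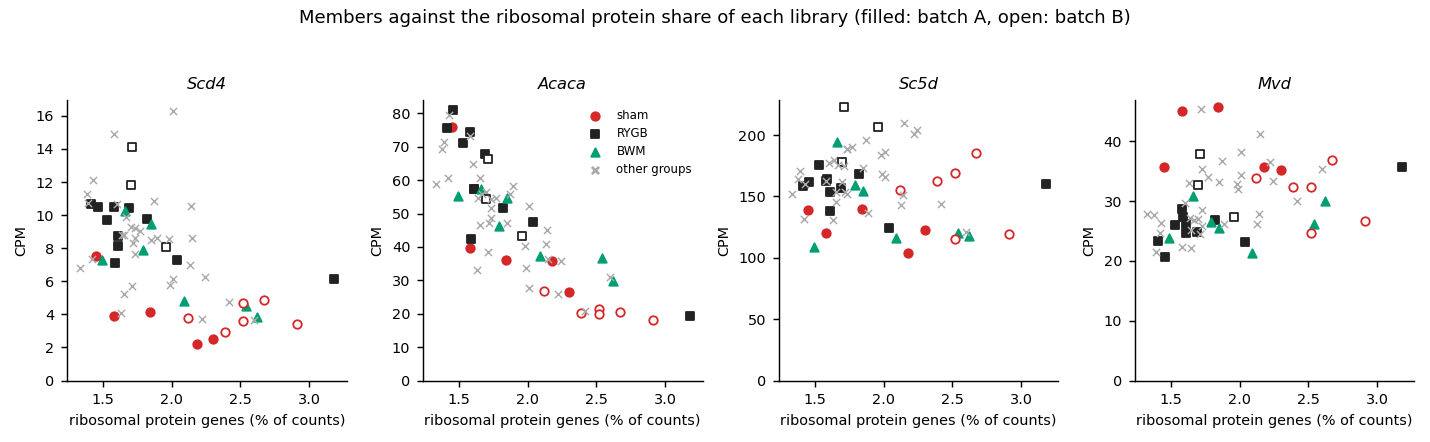
Levels in CPM of Scd4, Acaca, Sc5d and Mvd against the share of counts on cytosolic ribosomal protein genes, in all 65 animals. Filled points are batch A and open points batch B, with sham-treated, RYGB-treated and BWM animals in colour and the other groups as grey crosses. Acaca is lower in libraries with a larger share, while the sham-treated animals lie below most others for Scd4 at the same share.

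Members of the cholesterol arm followed each other from animal to animal more closely than those of the fatty acid arm, as a description. The median r was 0.458 over 253 pairs within the cholesterol arm, 0.176 over 153 pairs within the fatty acid arm and 0.161 over 414 pairs across the arms. All pairs share the same 65 libraries and their depth. The closest pair was Msmo1 and Cyp51, both of lanosterol demethylation (r = 0.934). Hmgcs1 and Sqle had r = 0.782 and rho = 0.775 (permutation p = 1e-05 each, adjusted p = 2.17e-05 and 2.6e-05), with 0.751 without the 2 farthest animals and 0.731 and 0.856 in batches A and B. Scd4 and Acaca had r = 0.803 and rho = 0.816 with the same p-values, with 0.790 without the 2 farthest animals and 0.828 and 0.735 in the batches. The highest r in the fatty acid arm, 0.835, was that of Elovl6 and Acaca.

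BWM animals were compared with the same sham-treated animals to see the state after weight loss by food restriction. The library of BWM animal 5 held 77900 CPM of pituitary markers, where the other 6 had 1270 CPM or less. No member passed in edgeR (0 of 41, beside 0.320% of all genes) or DESeq2, and 3 members (7.32%) had an unadjusted p under 0.05, beside 12.3% of all genes. Without BWM animal 5 the count of calls was also 0, and the log2 fold changes of Scd4 and Mvd were 0.77 and -0.32. The median log2 fold change was 0.02 in the fatty acid arm and -0.10 in the cholesterol arm. Scd4 was 7.26 CPM in the median BWM animal (3.81 to 10.2), with all 7 animals above the sham median and 3 above the highest sham-treated animal. Its log2 fold change was 0.72 (SE 0.24, edgeR adjusted p = 0.168). Mvd was 26.2 CPM in the median BWM animal (21.4 to 30.9), with all 7 below the sham median. It had a log2 fold change of -0.35 (SE 0.13, edgeR adjusted p = 0.213). In batch A alone, where all BWM animals were, Mvd did not overlap the sham-treated animals, as was so for 0.617% of all genes, and was called (-0.57, adjusted p = 0.0325), as was Nsdhl (-0.39, adjusted p = 0.0424), beside 1.59% of all genes. Acaca was 46.4 CPM in the median BWM animal (29.9 to 57.5). Its log2 fold change was 0.29 (edgeR adjusted p = 0.604), and 0.10 (adjusted p = 0.886) in batch A alone, where the sham median was 36.0 CPM and not the 26.5 CPM of both batches. Scd was 27.3 CPM (23.7 to 56.0) in BWM animals, near the sham median of both batches. The log2 fold change of Scd was 0.27 (edgeR adjusted p = 0.59), and 0.26 (adjusted p = 0.639) in batch A alone.

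The direct comparison of RYGB-treated with BWM animals gave 0 of 41 calls in edgeR and DESeq2, beside 0.343% of all genes, with 10 members (24.4%) at an unadjusted p under 0.05, beside 12.6% of all genes. All of these 10 were higher in RYGB-treated animals, as were 34.6% of all genes at that level, and their adjusted p-values ran from 0.32 to 0.394. The median log2 fold change was 0.19 in the fatty acid arm, with 14 of 18 estimates above 0, and 0.09 in the cholesterol arm, with 16 of 23 above 0. Scd4 had a log2 fold change of 0.50 (SE 0.22, edgeR adjusted p = 0.344). In batch A alone, where all BWM animals were, only Sqle of the 10 members kept an unadjusted p under 0.05. The log2 fold changes there were 0.22 for Sqle (edgeR p = 0.0445), 0.38 for Scd4 (p = 0.135), 0.37 for Acaca (p = 0.103) and 0.22 for Fads2 (p = 0.249).

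No member passed between lean and sham-treated animals (0 of 41 in edgeR and DESeq2, beside 0% of all genes), with 6 (14.6%) at an unadjusted p under 0.05, beside 12.2% of all genes. Scd4 was 7.08 CPM in the median lean animal (3.67 to 14.9), with a log2 fold change of 0.94 (SE 0.25, edgeR adjusted p = 0.158). It was called without lean animal 6 (1.09, adjusted p = 0.0162) and without sham-treated animal 1 (1.11, adjusted p = 0.0207). Lss, Acaca and Elovl6 had medians of 36.8, 59.8 and 9.45 CPM in lean animals, all of batch A. Their log2 fold changes were 0.39, 0.55 and 0.46 with the batch term and 0.27, 0.35 and 0.46 in batch A alone, and none passed. In batch A alone, Mvd had -0.48 (edgeR adjusted p = 0.168), Nsdhl -0.37 (adjusted p = 0.188) and Scd4 0.99 (adjusted p = 0.212). The batch A comparisons of RYGB-treated, BWM and lean animals share the same sham-treated animals.

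The hormone treatments were compared with saline. PYY3-36 gave 0 of 41 calls beside 0% of all genes, with 6 members (14.6%) at an unadjusted p under 0.05, beside 7.54% of all genes. Liraglutide gave 0 calls beside 0%, with 1 such member (2.44%, beside 2.08%), and PYY3-36 + liraglutide gave 0 calls beside 0.00457%, with 2 such members (4.88%, beside 2.53%). DESeq2 also called 0 members in each of the 3. For PYY3-36, the smallest adjusted p was 0.652 and the median log2 fold change was 0.27 in the fatty acid arm, with 15 of 18 estimates above 0, and 0.11 in the cholesterol arm. Scd was 62.3 CPM in the median PYY3-36-treated animal, and all 4 animals (51.4 to 79.3 CPM) were above the highest of the 8 saline-treated animals (30.9 to 46.9 CPM). It was the only member whose groups did not overlap over both batches (1 of 41, beside 0.782% of all genes), and the PYY3-36-treated animals were all in batch B. Scd4 had log2 fold changes of 0.64 after PYY3-36, 0.30 after liraglutide and 0.14 after PYY3-36 + liraglutide, with SEs of 0.29, 0.27 and 0.22. The batch interaction of the combined treatment gave 0 called members and 0 called genes in edgeR, with 3 members (7.32%) at an unadjusted p under 0.05, beside 5.76% of all genes.

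**Figure D5:**
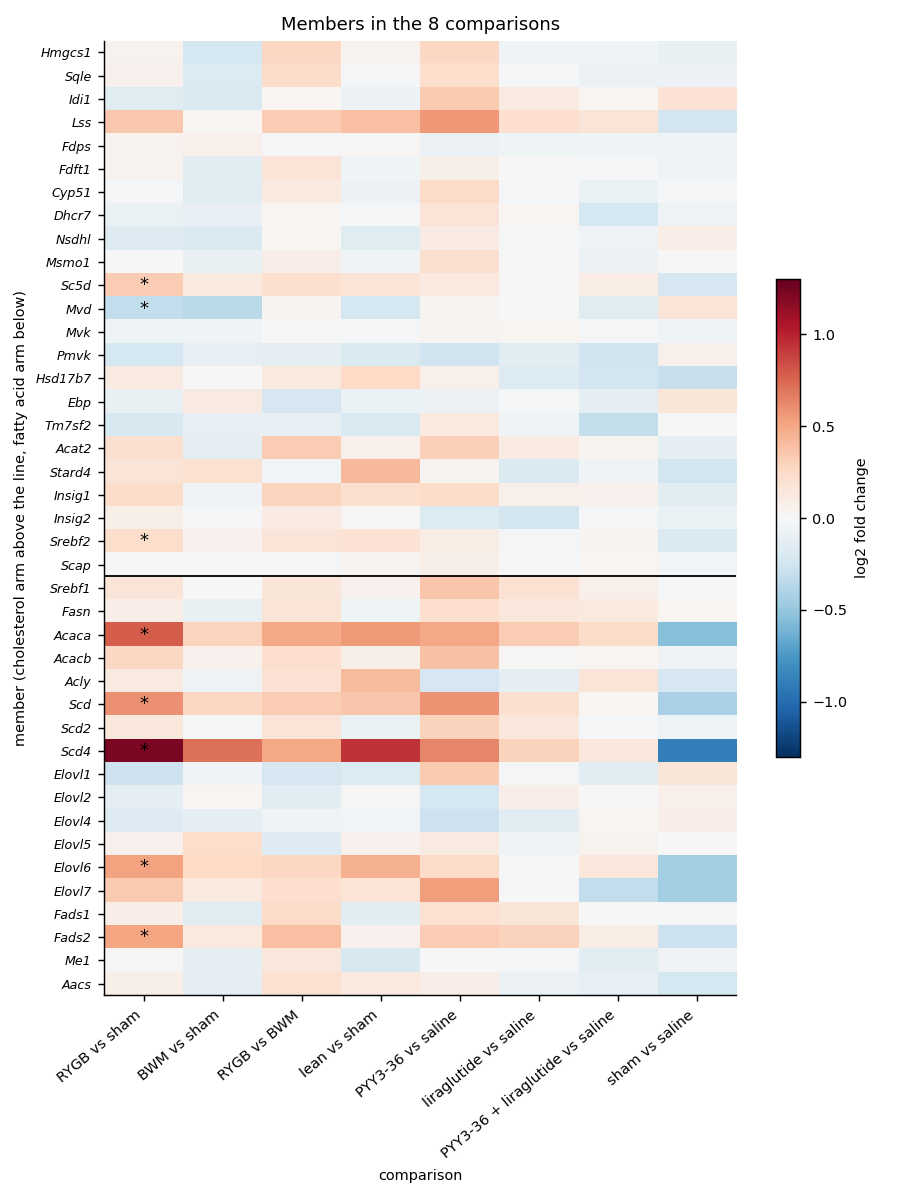
Log2 fold changes of the 41 members in the 8 comparisons, red for higher and blue for lower in the first-named group. Asterisks mark an adjusted p under 0.05. All 8 asterisks are in RYGB vs. sham, and Scd4 has its lowest value in sham vs. saline.

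The 2 control groups were compared with each other. No member passed in edgeR for sham vs. saline (0 of 41, beside 0.0137% of all genes), with 8 (19.5%) at an unadjusted p under 0.05, beside 12.9% of all genes, and DESeq2 called 1, Scd4. Saline-treated animals had 7.30 CPM of Scd4 (4.74 to 10.7), and the log2 fold change of sham vs. saline was -0.90 (SE 0.22, edgeR adjusted p = 0.131). Without sham-treated animal 1 it was -1.03 (adjusted p = 0.0176). Acaca was 41.5 CPM in the median saline-treated animal (20.8 to 64.8) and Scd was 43.0 CPM (30.9 to 46.9). The sham-treated animals had the lowest group median of Scd4, Acaca, Elovl6, Fads2 and Srebf2 among the 8 groups, in medians that pool the batches. In batch B this held for all 5 genes. In batch A it held for Scd4, Acaca and Elovl6, while Fads2 was 61.8 CPM in sham-treated and 60.8 CPM in lean animals and Srebf2 168 CPM in sham-treated and 167 CPM in BWM animals.

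The result for RYGB depended on the control group. Against saline-treated animals, RYGB gave 0 of 41 calls in edgeR, beside 0.00457% of all genes, and 0 members at an unadjusted p under 0.05 (beside 2.08% of all genes), with estimates from -0.21 to 0.32. Scd4 had a log2 fold change of 0.32 there. Against sham-treated animals, the hormone groups gave calls. PYY3-36 vs. sham called 5 members beside 8.35% of all genes, all higher: Scd4 (1.54), Acaca (1.06), Scd (1.01), Elovl7 (0.98), an elongase of long chains, and Lss (0.80). Liraglutide vs. sham called Scd4 (1.20, adjusted p = 0.0266) beside 0.0960% of all genes. PYY3-36 + liraglutide vs. sham called 9 members beside 14.7% of all genes, with 7 higher, Scd4 (1.04) among them, and Mvd and Pmvk, a kinase of the mevalonate pathway, lower. These comparisons share the same 11 sham-treated animals. The surgery and the 2 drug routes are confounded with the choice of control here and cannot be told apart.

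The batches themselves differed in 19 of 41 members, beside 40.7% of all genes, with the groups in the model. Of these, 15 were higher in batch B and 4 were lower: Acacb (-1.08), Acaca (-0.61), Lss (-0.61) and Srebf2 (-0.15). Scd4, Scd, Fads2 and Mvd were not among them.

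Other genes of lipid metabolism were followed in RYGB vs. sham. Of 32 further cholesterol genes, 6 were higher and 0 lower (18.8%, beside 13% of all genes). Soat1, which esterifies cholesterol, was 3.02 CPM in the median sham-treated (2.28 to 6.87) and 9.11 CPM in the median RYGB-treated animal (2.90 to 12.8), with a log2 fold change of 1.16 (SE 0.22, edgeR adjusted p = 0.00131). The groups overlapped. Mylip, which encodes an E3 ubiquitin ligase, was 11.4 CPM (8.43 to 18.8) and 16.5 CPM (12.1 to 24.6). It had a log2 fold change of 0.55 (SE 0.13, edgeR adjusted p = 0.00539), and the groups overlapped. With the ribosomal protein covariate it was 0.55 (adjusted p = 0.0471). Apoe, the main lipoprotein component made by astrocytes, had -0.13 (adjusted p = 0.41). Cyp46a1, the neuronal enzyme that makes cholesterol removable as 24-hydroxycholesterol, had -0.54 (adjusted p = 0.0625), and -0.02 without the libraries low in hypothalamic markers. With the ribosomal protein covariate, Soat1 had 0.62 and was no longer called.

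Of 47 further tested lipid genes, a mixed list of oxidation, activation, transport, storage, NADPH supply, further elongation and desaturation enzymes and regulators of lipogenesis, 2 were higher and 4 lower in RYGB vs. sham, 12.8% and thus near the background. The higher genes were Cpt1a, which brings fatty acids into mitochondria (0.41, adjusted p = 0.013), and the acyl-CoA synthetase Acsl6 (0.27, adjusted p = 0.0244). Among the lower genes, Dgat2, which completes triglyceride synthesis, had -0.70 (adjusted p = 0.0162) and Agpat1 -0.23 (adjusted p = 0.0148), and both calls were lost without sham-treated animal 2 (-0.43 and -0.14). Without the libraries low in hypothalamic markers, Dgat2 had -0.12 (adjusted p = 0.586). In BWM vs. sham, Cpt1a was the only called gene of this list (0.60, adjusted p = 0.0304), and 8 of the 18 fits that left out an animal lost this call. Without BWM animal 5, whose library was high in pituitary markers, it was 0.39 (adjusted p = 0.271).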

How the data were processed

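Whole hypothalamus of 65 rats was profiled by RNA sequencing. Group and batch of each library come from its label. The authors made stranded poly-A libraries with single-end reads of 75 nt, trimmed them with cutadapt, mapped them with STAR 2.7.2b to Rnor_6.0 and counted them with featureCounts 1.6.4 on RefSeq genes. A read with several places or genes was divided among them, so the deposited values are estimated counts per gene without normalisation. Of the nonzero values, 30.3% were not whole at a tolerance of 1e-06. This splitting can move counts between related genes such as the desaturases.

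Values were rounded to whole counts. The main analysis used edgeR 4.0.16 under R 4.3.3, with the filter filterByExpr (minimum count 10, total 15). Counts were scaled by TMM and tested with the robust quasi-likelihood model with terms for group and batch over all 65 libraries. P-values were adjusted by Benjamini-Hochberg over 21871 genes, and a gene was called at an adjusted p under 0.05. CPM used the TMM-scaled library sizes, and intervals are 95%. Total counts per library ran from 20041010 to 36539941, with a median of 27379945. The lowest median estimated count of a member was 219, for Scd4. Correlations used Python 3.11.15 with scipy 1.17.1, as deviations from group-by-batch means with permutation within these cells. The edgeR step was tested on simulated data with known changes.

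Alternatives were DESeq2 1.42.0, its size factors, no filter, no batch term, a single batch, only the compared groups, a replicate block, marker covariates, the other control group and leaving out each animal. A ribosomal protein covariate and leaving out 13 libraries with under 600 CPM of hypothalamic markers were added after seeing the data. Members, context lists and marker lists were chosen with earlier results of these data known. Values are given for called members, for a fixed set of regulators and enzymes, and for up to 4 called genes of each context list by adjusted p, and Lss was added after its values were seen. A few genes of these lists are not reported here. Promoters and motif positions come from RefSeq on GRCr8, not the build of the counts. The labels do not say that a shared replicate number pairs animals, and the main fit took them as unpaired. Among 171 pairs of libraries with the same number, deviations from the group means correlated with a median r of -0.00426 (-0.687 to 0.717). The median for other pairs was -0.0112. Such a median cannot tell whether some animals were paired.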

Additional observations from a re-analysis of the deposited data

Results flagged for a closer look

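In groups of 4 to 10 animals, the highest or lowest animal of 23 named members was compared with the rest of its group by Dixon's ratio at the 95% level. Of 138 combinations of member and group, 8 (5.8%) stood apart, and chance gives about 1 in 20. Of these 8, 6 came from 4 of the libraries with under 600 CPM of hypothalamic markers: BWM animal 1 (416 CPM), saline-treated animal 4 (333 CPM) and liraglutide-treated animals 3 (336 CPM) and 4 (310 CPM). The part of this in the values was not tested. Animal 1 of the BWM group stood apart in 2 members of the sterol pathway. It had 37.5 CPM of Sqle, where the other 6 had 62.2 to 73.8, and 166 CPM of Scap, where the others had 89.2 to 104. BWM animal 4 had 380 CPM of Fasn (others 241 to 300). Saline-treated animal 4 had 226 CPM of Srebf2 (others 144 to 182). Liraglutide-treated animal 3 had 441 CPM of Acly (others 276 to 301) and 61.0 CPM of Fads2 (others 80.2 to 87.8), and liraglutide-treated animal 4 had 34.0 CPM of Insig2 (others 45.3 to 48.5). PYY3-36 + liraglutide-treated animal 2 had 413 CPM of Fasn (others 279 to 350).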

How the results depend on the processing

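The count of 8 members called in RYGB vs. sham was 6 to 10 under 9 of 13 alternatives, 3 in batch A only, 1 with the ribosomal protein covariate and 0 with saline-treated controls. Leaving out an animal gave 5 to 10, with 5 without RYGB-treated animal 9 or 13 or sham-treated animal 4 or 5. Scd4 kept its call in all 25 of these fits and in 12 of 13 other alternatives, and Sc5d, Acaca and Scd in all 25. For BWM vs. sham, 2 members were called without a batch term and 2 in batch A only, and leaving out an animal gave 0 throughout. For lean vs. sham, 3 were called without a batch term and 1 without the libraries low in hypothalamic markers, and leaving out an animal gave 0 to 2 (1 without lean animal 6, 2 without sham-treated animal 1). With sham-treated controls, PYY3-36 gave 5, liraglutide 1 and the combination 9. For sham vs. saline, DESeq2 called 1 and leaving out an animal gave 0 to 2 (2 without sham-treated animal 1). Leaving out an animal never gave a call in the other 4 comparisons and turned no direction.

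With the replicate number as a block, 2 members (4.88%) were called in RYGB vs. sham, Scd4 and Acaca, beside 7.40% of all genes. Only 7 of 65 libraries correlated best with one of their own number.

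Within a single batch, 10 of 41 RYGB vs. sham estimates in batch A and 12 in batch B, Mvd the only called member among them, had another sign than over both. Of the estimates recomputed under every alternative, these turned direction, and the cause was not tested. Mvd was 0.0822 in batch B only. Hmgcs1 was -0.0098 without a batch term, -0.19 in batch A only, -0.0408 with the replicate block, -0.0457 without the libraries low in hypothalamic markers and -0.0479 against saline. In the same settings Sqle was -0.0192, -0.0105, -0.0178, -0.0228 and -0.0242. Fasn was -0.14 in batch A only, -0.0014 with the replicate block and -0.0503 with the ribosomal protein covariate. Apoe was 0.0506 with the ribosomal protein covariate and 0.0142 against saline. Scd4 was -0.19 in BWM against saline, and -0.0113 in batch A only and -0.0737 with the ribosomal protein covariate in PYY3-36 + liraglutide vs. saline. BWM, lean and single-hormone animals were in 1 batch each, so their comparisons rest on the batch term or on fewer controls.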
